A study of Homo sapiens with 6 samples.

Results

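The ABC drug efflux transporters studied here are 10 genes: ABCB1, ABCC1, ABCC2, ABCC3, ABCC4, ABCC5, ABCC10, ABCG2, ABCA1 and ABCB6. They were chosen by gene symbol among the 69292 gene IDs of the count table. No rule on their measured values was applied, but earlier results of these data were known when they were chosen. ABC transporters are membrane pumps that spend ATP to carry drugs, lipids, conjugates and signalling molecules across membranes. ABCB1 (P-glycoprotein) and ABCG2 (breast cancer resistance protein) pump many anticancer drugs out of cells, and rapamycin analogs are known substrates of efflux pumps. The ABCC genes encode the multidrug resistance-associated proteins, which export organic anions, glutathione conjugates and nucleotide analogs.

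RNA was sequenced from MDA-MB-231, an established line of triple-negative breast cancer with mesenchymal traits, in 3 groups of 2 libraries. The groups were a derivative resistant to everolimus and kept for months in 20 µM of it, a derivative resistant to ridaforolimus and kept for months in 30 µM of it, and parental cells. Everolimus and ridaforolimus are analogs of rapamycin that inhibit the kinase mTOR. All 3 groups grew in the same serum-containing medium, and the parental libraries carry a DMSO label in one field and no drug in another. Each resistant line is a single derivative that was in its drug until its RNA was taken, so resistance, drug exposure, dose and drift in culture cannot be told apart. The sources used here do not say whether a line was cloned or whether the 2 libraries of a group came from separate cultures, so p-values measure only the spread between these libraries.

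Libraries held 13134567 to 15556246 counts, and 21223 genes were tested. Markers of a mesenchymal line were mostly present: AXL, CD44 and VIM stood between 134 and 1558 CPM (counts scaled to a common library size), while SPARC, another mesenchymal marker, stayed at or under 1.02 CPM. Of 9 luminal and receptor markers, ESR1, PGR and CDH1 stayed at or under 0.916 CPM in every library, EPCAM at or under 5.35 CPM and GATA3 at or under 5.88 CPM. The other 4 were expressed, KRT8 at 263 to 428 CPM, KRT18 at 107 to 219 CPM, KRT19 at 23.0 to 118 CPM and ERBB2 at 44.3 to 62.9 CPM. The 4 leukocyte markers summed to between 0.141 and 1.09 CPM with CD3E at 0 throughout, the 4 endothelial ones to between 3.73 and 15.7 CPM, and the 5 fibroblast ones to between 5.29 and 15.9 CPM with LUM at 0 throughout. Counts of bulk cultures cannot tell fewer expressing cells from less RNA per cell.

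None of the transporters passed the test in any comparison (edgeR's quasi-likelihood test, Benjamini-Hochberg adjusted p under 0.05 over all genes). ABCB1 was at or near 0 in every library and could not be tested. Among the other 9, 0 were called in everolimus-resistant against parental cells, where 0.00471% of all genes were. Likewise 0 of 9 were called in ridaforolimus-resistant against parental cells (0.32% of all genes) and 0 of 9 between the resistant lines (0.744% of all genes). DESeq2 and limma-voom also called 0 of 9 each time. Over all genes DESeq2 called more than edgeR. Against parental cells it called 150 genes in the everolimus line and 574 in the ridaforolimus line, beside 1 and 68 by edgeR. At an unadjusted p under 0.05 the edgeR counts were 0, 2 and 0 of 9, where 8.79%, 14.5% and 14.1% of all genes reached it. These 2 were ABCC5, higher, and ABCC10, lower, in the ridaforolimus line.

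Promoter sequences are shown for 4 of the genes: ABCA1, whose 2 libraries differed over 3-fold in each resistant line, ABCB1, which was nearly silent, and ABCC5 and ABCC10. Each is the 250 bases before a transcription start in RefSeq (build GRCh38.p14), written 5′ to 3′ on the gene's own strand, with capitals marking motif matches on either strand. RefSeq promoters were matched by symbol for 8 of the 10 genes, with 14 starts among them, and ABCC1 and ABCC3 had no entry.
ABCA1, chr9:104928156-104928405, minus strand: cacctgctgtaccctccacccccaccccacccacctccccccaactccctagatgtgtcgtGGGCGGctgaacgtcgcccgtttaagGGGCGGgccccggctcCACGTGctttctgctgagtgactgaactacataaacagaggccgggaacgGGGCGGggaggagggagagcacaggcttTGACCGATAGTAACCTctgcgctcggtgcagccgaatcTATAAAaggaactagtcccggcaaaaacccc
ABCB1, downstream start, chr7:87600885-87601134, minus strand: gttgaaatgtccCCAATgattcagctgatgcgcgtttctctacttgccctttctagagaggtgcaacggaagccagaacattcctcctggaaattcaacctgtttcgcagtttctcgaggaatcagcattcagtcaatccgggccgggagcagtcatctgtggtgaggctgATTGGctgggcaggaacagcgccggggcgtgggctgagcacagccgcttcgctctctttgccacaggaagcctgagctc
ABCC5, chr3:184017885-184018134, minus strand: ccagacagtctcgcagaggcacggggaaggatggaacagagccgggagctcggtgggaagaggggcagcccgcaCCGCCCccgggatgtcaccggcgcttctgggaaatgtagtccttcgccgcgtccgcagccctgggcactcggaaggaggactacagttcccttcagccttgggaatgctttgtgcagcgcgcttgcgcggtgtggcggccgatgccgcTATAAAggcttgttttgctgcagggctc
ABCC10, upstream start, chr6:43427291-43427540, plus strand: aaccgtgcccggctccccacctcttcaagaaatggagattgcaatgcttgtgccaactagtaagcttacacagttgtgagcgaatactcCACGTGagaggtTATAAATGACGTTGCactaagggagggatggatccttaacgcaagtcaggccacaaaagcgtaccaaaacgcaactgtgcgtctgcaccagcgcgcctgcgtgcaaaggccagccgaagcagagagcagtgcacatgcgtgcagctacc

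The ABCA1 window held the liver X receptor (LXR) pattern, AGGTNA and NGGTCA with 4 free bases (N) between them, on the strand opposite to the gene and beginning 69 bases before the start. That pattern was written with the known element of ABCA1 in mind, and 0.0797% of 35116 RefSeq promoters hold it, so its presence here is no finding. The same window held an E-box (CACGTG, in 6.34% of promoters), 3 GC boxes (GGGCGG, 42.6%) and a TATA box (TATAAA, 10.7%) beginning 31 bases before the start. The ABCC5 window held 1 GC box and a TATA box beginning 28 bases before the start. In the upstream ABCC10 window an E-box, a TATA box and the antioxidant response core TGACNNNGC (10.9% of promoters) stood within a short stretch, none of them overlapping. The downstream ABCC10 window, not shown, held 3 GC boxes and none of these motifs. The downstream ABCB1 window held CCAAT (in 32% of promoters) on both strands, and the upstream one, not shown, held 0 matches. Matches describe letters only.

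ABCB1 (ENSG00000085563, chromosome 7 at 87503633 to 87713323, minus strand of GRCh38) had 0 and 0 counts in the everolimus libraries, 1 and 0 counts in the ridaforolimus libraries and 0 and 0 counts in the parental libraries. With 0 counts over the 2 libraries of a group, a floor of 3 counts allows up to 0.105 CPM in the everolimus line and 0.107 CPM in parental cells. The single count of the ridaforolimus line has an exact 95% Poisson interval of 0.00095 to 0.210 CPM. Floors and intervals cover counting error only, and no molecular identifiers are stated.

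ABCG2 (ENSG00000118777, chromosome 4 at 88090264 to 88231322, minus strand) was low as well, at 0.724 and 3.64 CPM in the everolimus libraries, 3.43 and 2.56 CPM in the ridaforolimus libraries and 0.840 and 2.11 CPM in the parental libraries. Those levels rest on 10, 55, 45, 35, 11 and 30 counts in the same order. Both ridaforolimus libraries lay above both parental ones, while the everolimus pair spanned the parental pair, with a 5.02-fold gap inside it. In the ridaforolimus line the log2 fold change over parental was 1.00 ± 0.71 (standard error), with a 95% interval of -0.63 to 2.64 (adjusted p = 0.552, edgeR). For the everolimus line it was 0.56 ± 0.72 (adjusted p = 0.865), and without everolimus replicate 2 it became -1.04. As folds, the intervals ran from 0.647 to 6.23 in the ridaforolimus line and from 0.470 to 4.63 in the everolimus line, so a several-fold change in this gene was not resolved.

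ABCC1 (MRP1, which exports glutathione conjugates and leukotriene C4) was the most abundant of the 10 by mean length-scaled level. It averaged 109 ± 8.38 TPM in everolimus-resistant cells, 94.5 ± 8.43 TPM in ridaforolimus-resistant cells and 92.0 ± 2.29 TPM in parental cells (SD, n = 2 each). TPM were computed from the counts and exon lengths, a scale that allows levels of different genes to be set side by side. By that measure ABCC1 was above 95.6%, 95% and 94.8% of the tested genes in the everolimus, ridaforolimus and parental groups. ABCC1 (ENSG00000103222) lies on chromosome 16 at 15949577 to 16143074.

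For comparisons between groups, CPM are used. ABCC1 had 284 and 285 CPM in the everolimus libraries, 243 and 251 CPM in the ridaforolimus libraries and 267 and 268 CPM in the parental libraries. The everolimus pair lay just above and the ridaforolimus pair just below the parental pair, with no overlap. Its log2 fold changes over parental were 0.09 ± 0.18 in the everolimus line (interval -0.31 to 0.49, adjusted p = 0.922) and -0.12 ± 0.18 in the ridaforolimus line (interval -0.52 to 0.29, adjusted p = 0.808). As folds, these intervals reached at most 1.41 in the everolimus line and 1.22 in the ridaforolimus line. The lines differed from each other by 0.21 ± 0.18 (everolimus over ridaforolimus, interval -0.20 to 0.61, adjusted p = 0.652). On the TPM scale the ridaforolimus mean was above the parental one, so the side on which that line fell depended on the scale.

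**Figure D1:**
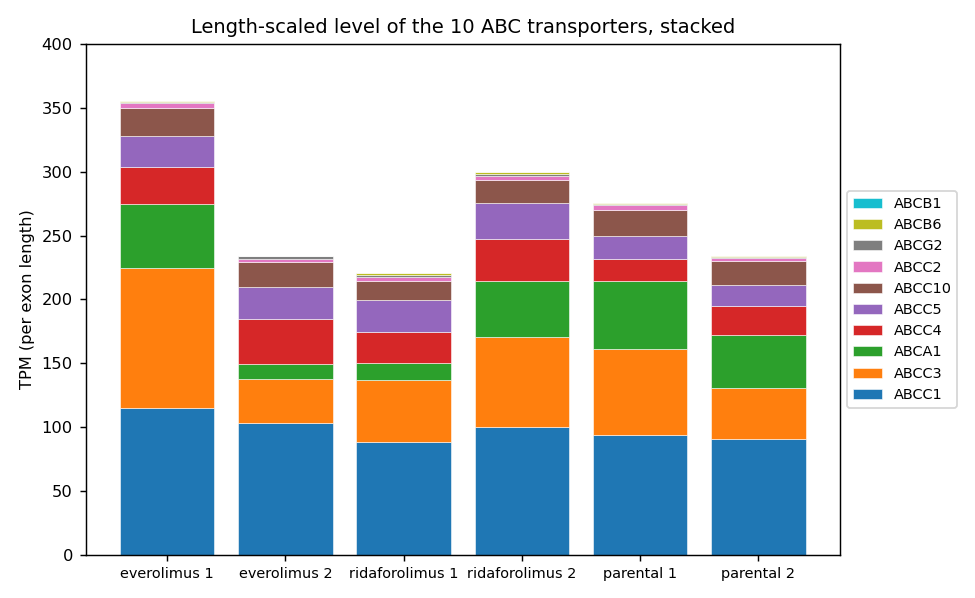
Length-scaled level in TPM of the 10 transporters in each library, stacked, with everolimus and ridaforolimus libraries left of the parental ones. Sums ran from 221 to 355 TPM, ABCC1 and ABCC3 made up most of each bar, and ABCB1, ABCB6 and ABCG2 are too low to see.

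Summed over the 10 genes, the level was 355 and 234 TPM in the everolimus libraries, 221 and 300 TPM in the ridaforolimus libraries and 276 and 234 TPM in the parental libraries. All pairs overlapped, as the stacked plot of TPM shows. ABCC1 contributed between 32.4% and 44.1% of the sum. ABCC3 contributed 30.7% and 14.6% in the everolimus libraries, 22.0% and 23.4% in the ridaforolimus libraries and 24.4% and 17.1% in the parental libraries.

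The order of the genes by mean TPM was much alike in the 3 groups, from ABCC1 and ABCC3 at the top to ABCB1 at the bottom. In the everolimus line ABCC1 (109 TPM), ABCC3 (71.7 TPM), ABCC4 (32.3 TPM) and ABCA1 (30.9 TPM) each overlapped the next gene in the order. ABCA1 overlapped ABCC5 (24.5 TPM), and ABCC1 (103 to 115 TPM) overlapped ABCC3 (34.3 to 109 TPM). In the ridaforolimus line ABCC3 (59.2 TPM) stood clear of its neighbours in the order, while ABCA1 (28.6 TPM), ABCC4 (28.5 TPM) and ABCC5 (26.7 TPM) did not differ beyond their spread. In parental cells ABCC3 (53.6 TPM) and ABCA1 (47.7 TPM) overlapped, followed by ABCC4 (19.9 TPM) and ABCC10 (19.6 TPM), which overlapped too, and then ABCC5 (17.1 TPM). Far below came ABCC2, near 3 TPM in every group (3.05, 3.16 and 3.22 TPM in the everolimus, ridaforolimus and parental groups), then ABCG2 and ABCB6. These 2 changed places: ABCG2 averaged 1.21, 1.71 and 0.756 TPM and ABCB6 averaged 0.744, 1.24 and 0.866 TPM in the same groups. Their ranges met in the everolimus and parental groups. The level and rank of ABCB6 are uncertain, because a read-through gene on the same strand covers nearly all of it.

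**Figure D2:**
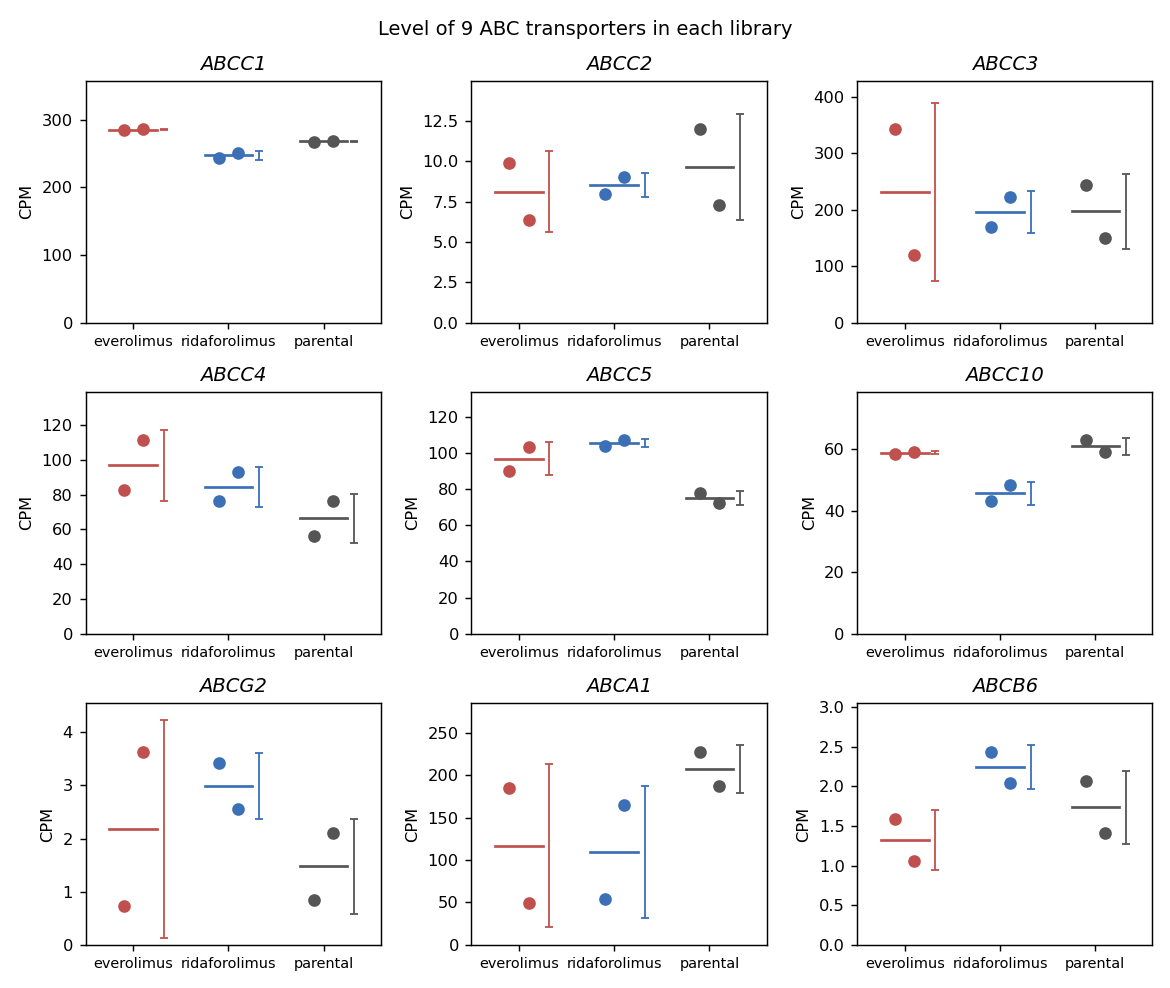
Level of 9 transporters in CPM in each library (points), with the group mean as a bar and the SD over 2 libraries as a whisker beside it. ABCB1, at 0 to 1 count, is not drawn. ABCC5 shows both resistant lines above parental cells, and ABCA1 shows 1 low library in each resistant line, at 49.0 and 54.5 CPM.

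ABCC4 and ABCC5 export cyclic nucleotides and nucleotide analogs. ABCC5 had 90.2 and 103 CPM in the everolimus libraries, 104 and 107 CPM in the ridaforolimus libraries and 77.6 and 72.3 CPM in the parental libraries. All 4 libraries of the resistant lines lay above both parental libraries, which the lines share as their control. In the ridaforolimus line the log2 fold change was 0.49 ± 0.18 (interval 0.08 to 0.90, unadjusted p = 0.0239, adjusted p = 0.275), a fold of 1.41 with an interval of 1.06 to 1.87. In the everolimus line it was 0.37 ± 0.18 (interval -0.04 to 0.77, adjusted p = 0.606). Over the alternatives tried, the adjusted p of ABCC5 in the ridaforolimus line ran from 0.193 to 0.789. The antisense gene ABCC5-AS1 overlaps it on the other strand and had 30 counts over the 6 libraries.

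ABCC4 had 82.5 and 111 CPM in the everolimus libraries, 76.4 and 92.8 CPM in the ridaforolimus libraries and 56.2 and 76.4 CPM in the parental libraries. Both everolimus libraries lay above both parental ones, and the lower ridaforolimus library fell just under the higher parental one. The everolimus line stood at 0.55 ± 0.24 on the log2 scale over parental (unadjusted p = 0.05, adjusted p = 0.566) and the ridaforolimus line at 0.35 ± 0.24 (interval -0.20 to 0.90, adjusted p = 0.536). Without everolimus replicate 2 the first of these became 0.31, and without parental replicate 2 it became 0.79. ABCC4 (ENSG00000125257) lies on chromosome 13 at 95019829 to 95301475 and ABCC5 (ENSG00000114770) on chromosome 3 at 183919934 to 184018015, both on the minus strand.

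ABCC10 (MRP7, known for exporting taxanes) went the other way in the ridaforolimus line. It had 58.5 and 59.2 CPM in the everolimus libraries, 43.1 and 48.4 CPM in the ridaforolimus libraries and 62.9 and 59.0 CPM in the parental libraries. The ridaforolimus pair was lowest, apart from the other 4 libraries. Over parental cells the ridaforolimus line stood at -0.41 ± 0.18 (interval -0.82 to -0.01, unadjusted p = 0.0455, adjusted p = 0.335) and the everolimus line at -0.05 ± 0.18 (interval -0.45 to 0.35, adjusted p = 0.958). Between the lines the log2 fold change of everolimus over ridaforolimus was 0.37 ± 0.18 (interval -0.04 to 0.77, adjusted p = 0.410). ABCC10 (ENSG00000124574, chromosome 6 at 43427366 to 43450430) overlaps DLK2 (43450352 to 43456632) on the opposite strand. The 2 genes share only the stretch from 43450352 to 43450430. DLK2 had 160 and 172 counts in the everolimus, 82 and 93 in the ridaforolimus and 163 and 157 in the parental libraries. The strand setting of the counting is not given in the sources used here, so the part of DLK2 in the ABCC10 count was not tested.

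ABCC3, which carries bile acids and glucuronides out of cells, varied most among the abundant ABCC genes. It had 342 and 120 CPM in the everolimus libraries, 169 and 222 CPM in the ridaforolimus libraries and 244 and 150 CPM in the parental libraries. The highest and the lowest library both belonged to the everolimus line, a 2.85-fold gap inside 1 group. Its log2 fold changes were 0.23 ± 0.45 in the everolimus line (interval -0.80 to 1.26, adjusted p = 0.923) and -0.01 ± 0.45 in the ridaforolimus line (interval -1.04 to 1.02, adjusted p = 0.992). Without everolimus replicate 1 the everolimus value became -0.71, and without everolimus replicate 2 it became 0.79. ABCC2, the canalicular conjugate pump of hepatocytes, had 9.92 and 6.35 CPM in the everolimus libraries, 8.0 and 9.06 CPM in the ridaforolimus libraries and 12.0 and 7.33 CPM in the parental libraries. These groups overlapped, with log2 fold changes over parental of -0.25 ± 0.34 and -0.18 ± 0.34 in the everolimus and ridaforolimus lines.

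ABCA1, which loads cellular cholesterol onto apolipoprotein A-I and is a classic target of LXR, had the widest spread among the transporters above 10 CPM. It had 185 and 49.0 CPM in the everolimus libraries, 54.5 and 165 CPM in the ridaforolimus libraries and 228 and 187 CPM in the parental libraries. All 4 resistant libraries lay under both parental ones, but in each line 1 library was close to the parental level and the other far below it. The gap between libraries was 3.77-fold in the everolimus line, 3.03-fold in the ridaforolimus line and 1.22-fold in parental cells. The log2 fold changes over parental were -0.83 ± 0.63 (interval -2.27 to 0.61, adjusted p = 0.748) in the everolimus line and -0.92 ± 0.63 (interval -2.36 to 0.52, adjusted p = 0.539) in the ridaforolimus line. They became -0.18 without everolimus replicate 2 and -0.34 without ridaforolimus replicate 1, and -2.08 and -1.92 without the other library of the line. Only with no filter on low counts did it pass in both lines (adjusted p = 0.0398 and 0.00639). ABCA1 (ENSG00000165029) lies on chromosome 9 at 104781002 to 104928237, minus strand. An antisense gene at its start (ENSG00000226334) had 33 and 16 counts in the everolimus, 9 and 27 in the ridaforolimus and 22 and 20 in the parental libraries, and its part in the ABCA1 count was not tested.

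ABCB6, a porphyrin transporter, was low, at 1.59 and 1.06 CPM in the everolimus libraries, 2.44 and 2.05 CPM in the ridaforolimus libraries and 2.06 and 1.41 CPM in the parental libraries. Both everolimus libraries lay under both ridaforolimus ones. The difference between the lines was -0.76 ± 0.42 (everolimus over ridaforolimus, interval -1.72 to 0.20, adjusted p = 0.471). Its level is uncertain: a read-through gene on the same strand (ENSG00000284820, chromosome 2 at 219209772 to 219222738) covers nearly all of it. How reads shared by both were counted is not given in the sources used here. That gene held 18 counts over the 6 libraries.

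**Figure D3:**
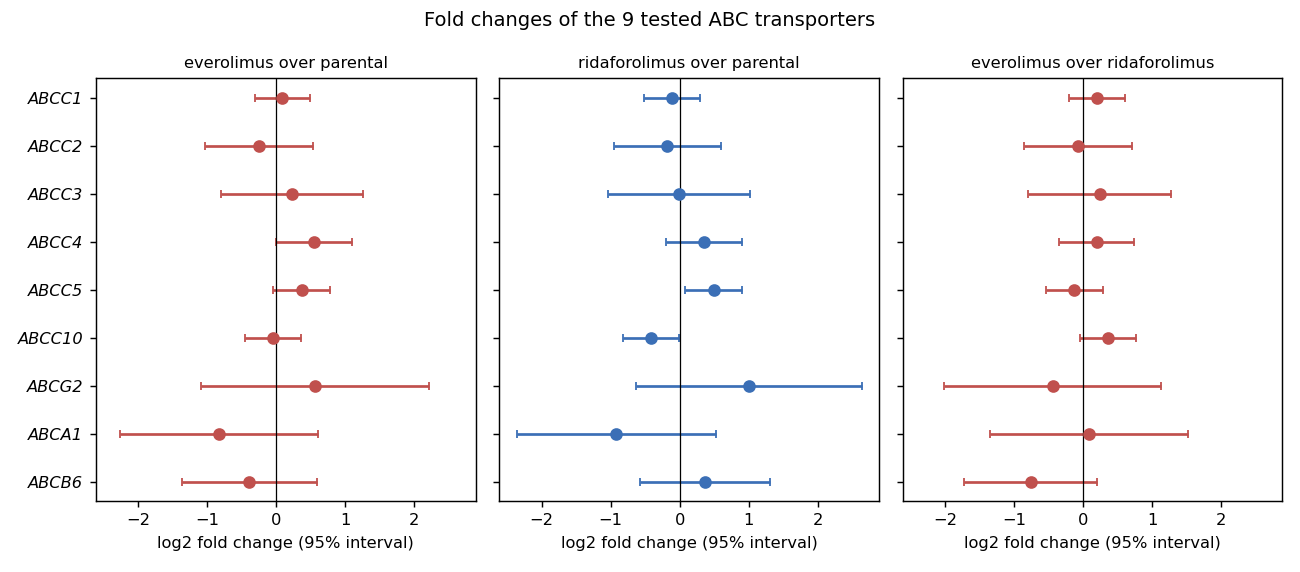
Log2 fold changes of the 9 tested transporters with 95% intervals, in everolimus over parental, ridaforolimus over parental and everolimus over ridaforolimus. Intervals are narrow for ABCC1, ABCC5 and ABCC10 and wide for ABCG2 and ABCA1, and only ABCC5 and ABCC10 in the ridaforolimus line exclude 0, before adjustment.

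Groups did not overlap for 4 of 9 transporters in everolimus against parental cells (ABCC1, ABCC4 and ABCC5 higher, ABCA1 lower), where 41.1% of all genes did not overlap. In ridaforolimus against parental cells this held for 5 of 9 (ABCC5 and ABCG2 higher, ABCA1, ABCC1 and ABCC10 lower), against 49.4% of all genes. Between the resistant lines it held for 4 of 9 (ABCC1 and ABCC10 higher, ABCB6 and ABCC5 lower), against 41.2% of all genes. Each count is close to the share among all genes. The median log2 fold change of the 9 was 0.09 in the everolimus line, -0.01 in the ridaforolimus line and 0.09 between the lines, beside 0.02, 0.01 and 0.02 over all genes tested. The plot of fold changes shows the same 9 genes with their intervals. Both resistant lines were set against the same parental libraries, so their values are not independent.

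Over the 6 libraries, log2 levels of ABCC1 and ABCC10 moved together (Pearson r = 0.84), as did those of ABCC2 and ABCC3 (r = 0.84). ABCC1 moved against ABCB6 (r = -0.84), and ABCG2 against ABCC3 (r = -0.84), ABCA1 (r = -0.83) and ABCC2 (r = -0.82). These pairs were picked as the strongest among all pairs of the 9 transporters. These are descriptions over 6 libraries that share groups. The genes most like each transporter in pattern, among those averaging at least 10 CPM, were ZFP36L2 and TTC12 for ABCC1 (r = 0.99 each), ANKRD12 for ABCC3 (r = 0.99), DENND2B and SFXN5 for ABCC5 (r = 1.00 and 0.99), IQSEC1 and ZNRF1 for ABCC4 (r = 0.99 each), and ZNF780B and ICAM1 for ABCA1 (r = 0.99 each). For ABCC10 they were C1GALT1C1 and TM7SF2, for ABCC2 ADGRA2 and ARID4B, for ABCG2 TMTC4 and KLHL23, and for ABCB6 KIAA2026 and BABAM2, with r between 0.98 and 1.00. With 6 points and so many genes to choose from, r this high was found for all 9 transporters.

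Of 37 other ABC family genes read beside the transporters, 26 were tested and 0 were called by edgeR in any comparison. At an unadjusted p under 0.05 edgeR counted 3, 4 and 7 of 26 in the everolimus, ridaforolimus and direct comparisons. Among all genes 8.79%, 14.5% and 14.1% reached it. Limma-voom called 0, and DESeq2 called 0 against parental cells and 1, ABCF2, higher in the everolimus than in the ridaforolimus line. Their median log2 fold changes were -0.09 in the everolimus line, -0.20 in the ridaforolimus line and 0.21 between the lines, beside 0.02, 0.01 and 0.02 over all genes tested. Values were above 0 for 11, 7 and 16 of the 26 in these comparisons, beside 52.3%, 51.3% and 51.7% of all genes. ABCF1, a translation factor of the family and not a pump, had 143 and 174 CPM in the everolimus, 120 and 86.6 CPM in the ridaforolimus and 185 and 177 CPM in the parental libraries (ridaforolimus over parental -0.81, adjusted p = 0.171). ABCD3, which imports fatty acids into peroxisomes, had 85.0 and 105 CPM, 72.7 and 60.4 CPM, and 94.6 and 102 CPM in the same groups (ridaforolimus over parental -0.56, adjusted p = 0.265). ABCA2, an endolysosomal lipid transporter, had 97.7 and 75.5 CPM in the everolimus, 112 and 229 CPM in the ridaforolimus and 122 and 104 CPM in the parental libraries (ridaforolimus over parental 0.60, adjusted p = 0.438). ABCD4, a lysosomal transporter of cobalamin, had 99.6 and 93.3 CPM, 84.2 and 87.2 CPM, and 77.6 and 75.9 CPM in the same groups, so that both resistant lines lay above parental cells (everolimus over parental 0.33, adjusted p = 0.628).

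**Figure D4:**
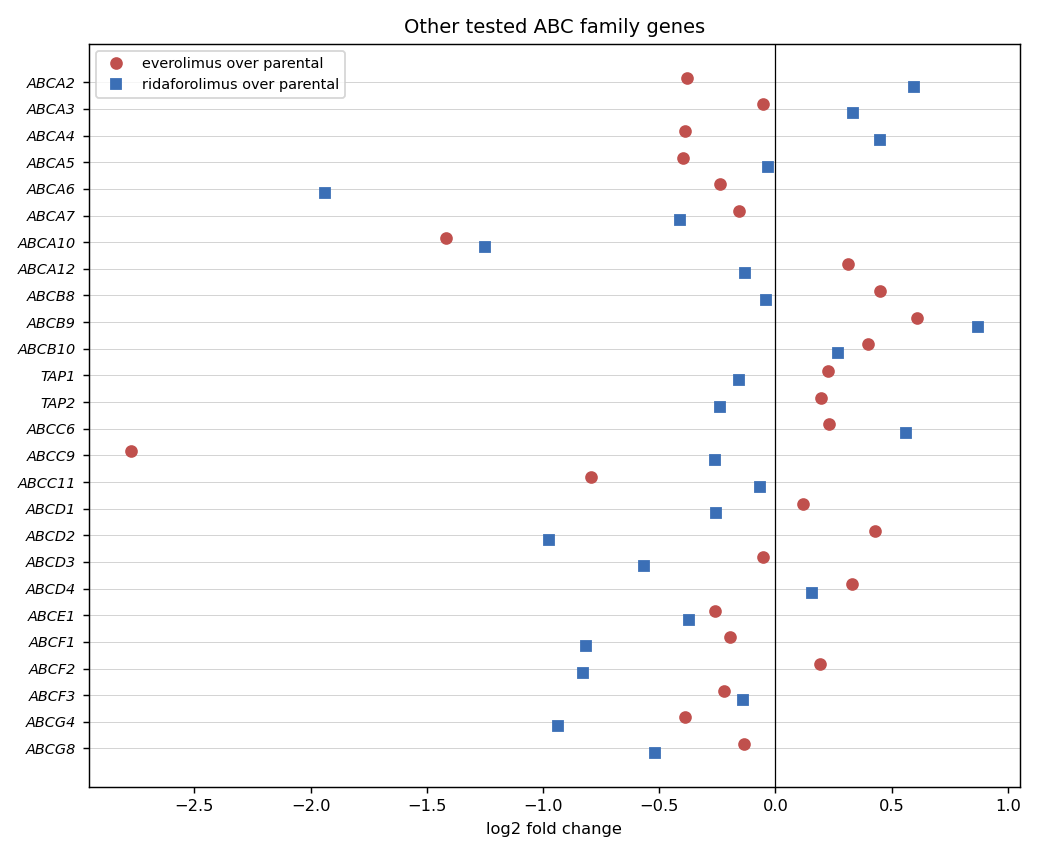
Log2 fold changes of the 26 tested other ABC family genes over parental cells, circles for everolimus and squares for ridaforolimus, as estimates without their errors. ABCC9 stands at the far left in the everolimus line (-2.77, adjusted p = 0.359, edgeR), and 7 of the 26 squares lie above 0, beside 51.3% of all genes.

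Regulators of transporter genes were read from 22 genes, of which 21 were tested. NR1H3, which encodes LXR-alpha, the oxysterol receptor that induces ABCA1, had 31.8 and 25.6 CPM in the everolimus libraries, 9.53 and 11 CPM in the ridaforolimus libraries and 15.1 and 14.9 CPM in the parental libraries. The 3 groups stood apart, with everolimus above and ridaforolimus below parental cells. Between the lines NR1H3 was 1.49 ± 0.23 higher on the log2 scale in the everolimus line (adjusted p = 0.0371). It was the 1 call by edgeR among the 21, beside 0.744% of all genes. Against parental cells it stood at 0.94 in the everolimus line (adjusted p = 0.353) and -0.55 in the ridaforolimus line (adjusted p = 0.324). The call between the lines was lost on leaving out any library other than everolimus replicate 2 (1.33 to 1.63). YBX1, HIF1A and SP1, the most abundant of the regulators, had log2 fold changes over parental of -0.15, 0.01 and -0.03 in the everolimus line and -0.34, -0.02 and -0.06 in the ridaforolimus line. Against parental cells edgeR called 0 of 21 in either line, while DESeq2 called EPAS1 lower in the ridaforolimus line. At an unadjusted p under 0.05 by edgeR there were 2, 4 and 5 in the everolimus, ridaforolimus and direct comparisons. Among all genes 8.79%, 14.5% and 14.1% reached it. NR1I2, the pregnane X receptor that induces ABCB1 and CYP3A4 in liver, stayed at or under 0.305 CPM.

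Of 11 other LXR targets, 9 were tested. On the log2 scale their median stood at 0.16 in the everolimus line, -0.07 in the ridaforolimus line and 0.32 between the lines. NR1H3, itself a target, was again the 1 called between the lines, beside 0.744% of all genes by edgeR. Against parental cells 0 were called by edgeR, DESeq2 or limma-voom. By edgeR 1, 2 and 2 of 9 had an unadjusted p under 0.05 in the everolimus, ridaforolimus and direct comparisons. Among all genes 8.79%, 14.5% and 14.1% did. SREBF1, the lipogenic transcription factor, had 138 and 131 CPM in the everolimus, 90.8 and 99.0 CPM in the ridaforolimus and 123 and 150 CPM in the parental libraries. SCD, a fatty acid desaturase, had 471 and 960 CPM, 662 and 621 CPM, and 407 and 629 CPM in the same groups. MYLIP, which degrades the LDL receptor, had 43.1 and 24.6 CPM, 31.7 and 26.9 CPM, and 32.6 and 28.0 CPM.

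Beside these, 10 genes of sterol synthesis and uptake were looked at after their values had been seen, and they support nothing. INSIG1, a sterol-regulated brake on that pathway, had 18.2 and 76.0 CPM in the everolimus, 15.5 and 14.7 CPM in the ridaforolimus and 7.87 and 13.9 CPM in the parental libraries. The library of the everolimus line with low ABCA1 was the one with the highest level of all 10. In the ridaforolimus line the library with low ABCA1 had INSIG1 close to the other library of that line, both above the parental libraries. Against parental cells edgeR and limma-voom called 0 of the 10 in either line, while DESeq2 called INSIG1 higher in the everolimus line. By edgeR 4, 1 and 6 had an unadjusted p under 0.05 in the everolimus, ridaforolimus and direct comparisons. Among all genes 8.79%, 14.5% and 14.1% did.

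**Figure D5:**
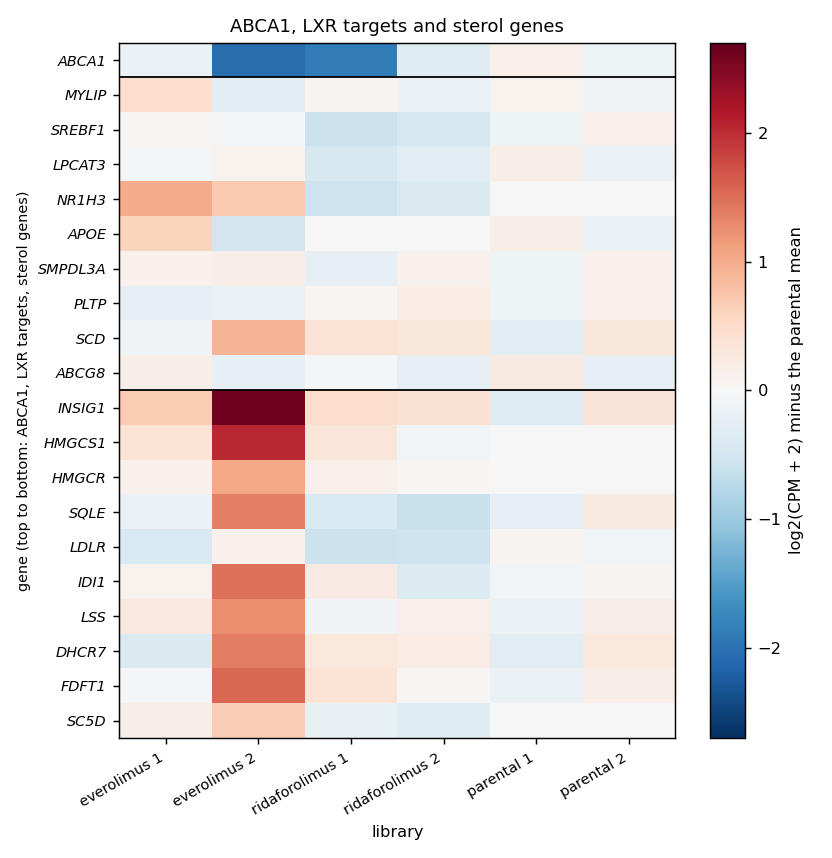
ABCA1, the 9 tested LXR targets and 10 sterol genes in each library, as log2(CPM + 2) minus the parental mean (red higher, blue lower). ABCA1 is low in everolimus replicate 2 (-2.03) and ridaforolimus replicate 1 (-1.89), and INSIG1 (2.64) and HMGCS1 (2.04) are highest in everolimus replicate 2.

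Enzymes and carriers that handle rapamycin analogs numbered 14, of which 7 were tested and 0 called by edgeR in any comparison. Unadjusted, 2, 0 and 2 of 7 had p under 0.05 by edgeR in the everolimus, ridaforolimus and direct comparisons, beside 8.79%, 14.5% and 14.1% of all genes. Limma-voom called 0, and DESeq2 called SLCO1B3 lower in the everolimus line than in the ridaforolimus line. CYP3A4, the main enzyme that oxidises these drugs in the liver, stayed between 0.229 and 0.797 CPM and was not tested. POR, the reductase that feeds electrons to these enzymes, had 37.9 and 46.1 CPM in the everolimus, 33.5 and 30.5 CPM in the ridaforolimus and 42.2 and 39.3 CPM in the parental libraries. SLCO4A1, an organic anion carrier, had 16.6 and 28.0 CPM, 9.30 and 13.9 CPM, and 11.7 and 10.4 CPM in the same groups (everolimus over parental 1.01, adjusted p = 0.488).

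Proteins that anchor or traffic the pumps were read from 14 genes, all tested. MSN encodes moesin, which ties membrane proteins to cortical actin, and it is also a marker of mesenchymal cells. It had 362 and 589 CPM in the everolimus libraries, 1436 and 1616 CPM in the ridaforolimus libraries and 780 and 685 CPM in the parental libraries, with everolimus below and ridaforolimus above parental cells. Between the lines it stood at -1.68 ± 0.27 (everolimus over ridaforolimus, adjusted p = 0.0403), the 1 call among the 14, beside 0.744% of all genes. That call was lost on leaving out any library other than everolimus replicate 2 (-2.08 to -1.36). Against parental cells its values were -0.62 (adjusted p = 0.549) and 1.06 (adjusted p = 0.149) in the everolimus and ridaforolimus lines. Of the 5 tested markers of a mesenchymal line, MSN among them, all 5 had values above 0 in the ridaforolimus line over parental cells and 4 in the everolimus line, with medians of 0.85 and 0.41, where 51.3% and 52.3% of all genes were above 0. With the untested SPARC included, the summed level of the mesenchymal markers was 2001 and 3087 CPM in the everolimus, 3824 and 3784 CPM in the ridaforolimus and 2400 and 2352 CPM in the parental libraries. The part of that level in these results was not tested. Of the 7 tested luminal and receptor markers, 6 were below 0 in the ridaforolimus line and 5 in the everolimus line, with medians of -0.48 and -0.23. By edgeR 3, 2 and 4 of these 7 had an unadjusted p under 0.05 in the ridaforolimus, everolimus and direct comparisons. Of the 5 tested mesenchymal markers 3, 1 and 2 did, beside 14.5%, 8.79% and 14.1% of all genes. Against parental cells edgeR and limma-voom called 0 of either marker list, while DESeq2 called CD44 and MSN higher and GATA3 and KRT18 lower in the ridaforolimus line and EPCAM lower in the everolimus line. Over all 21223 genes DESeq2 called 574 in the ridaforolimus line and 150 in the everolimus line. EZR, a relative of moesin, had 235 and 324 CPM in the everolimus, 243 and 185 CPM in the ridaforolimus and 447 and 376 CPM in the parental libraries, with adjusted p = 0.561 and 0.158. Against parental cells edgeR and limma-voom called 0 of 14, while DESeq2 called MSN higher and EZR lower in the ridaforolimus line. By edgeR 3, 2 and 3 of 14 had an unadjusted p under 0.05 in the everolimus, ridaforolimus and direct comparisons. Among all genes 8.79%, 14.5% and 14.1% did.

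Glutathione genes, which supply the conjugates that ABCC pumps carry, were 15, all tested, with 0 called by edgeR, DESeq2 or limma-voom in any comparison. At an unadjusted p under 0.05 edgeR counted 2, 2 and 3 of 15 in the everolimus, ridaforolimus and direct comparisons, beside 8.79%, 14.5% and 14.1% of all genes. Their median log2 fold changes were -0.06 in the everolimus line, 0.19 in the ridaforolimus line and -0.16 between the lines. SLC7A11, which imports cystine for glutathione, had 197 and 65.9 CPM in the everolimus, 578 and 188 CPM in the ridaforolimus and 290 and 322 CPM in the parental libraries, a gap of about 3-fold within each resistant line. GSTP1, the main glutathione transferase of many tumours, had 146 and 268 CPM, 255 and 194 CPM, and 238 and 266 CPM in the same groups.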

How the data were processed

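The deposited values are raw counts of reads per gene in 6 libraries, as the authors made them, neither normalised nor pooled. The submitters' processing notes name STAR 2.7.9a, Trim Galore 0.6.6, DESeq2 and HTSeq 0.13.5, with the build GRCh38 (hg38). No source used here gives the strand setting or the annotation release. A TruSeq Stranded mRNA kit was used, per the labels' protocols. Symbols matched 62625 of 69292 IDs, and positions and exon lengths come from GENCODE 29.

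Counts were tested with edgeR 4.0.16 (R 4.3.3): TMM, filterByExpr, 3 groups in 1 quasi-likelihood fit with 3 residual degrees of freedom, two-sided, adjusted p under 0.05 over 21223 genes. Intervals are 95%. CPM use TMM-scaled totals, and TPM were computed from all genes with a length. DESeq2 1.42.0 and limma 3.58.1 (voom) were alternatives. The fit was also run on simulated counts, drawn for each library on its own, which cannot test deviations that libraries share. Likeness used log2(CPM + 2). Libraries of a group differed beyond sampling noise (chi-square per degree of freedom 15.8 to 39.2).

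The members and lists were chosen with earlier results of these data known. All 10 transporters are named. From each pathway or family list up to 4 genes are named by rule, called ones before the most abundant. The named cell type markers, and EPAS1, ABCF2, SLCO1B3, NR1I2, CYP3A4, ABCC9, INSIG1, HMGCS1, RXRA, GSTO1 and SC5D, were named after their values were seen. Some genes of these lists are not reported here.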

Additional observations from a re-analysis of the deposited data

Results flagged for a closer look

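ABCC1 lay on opposite sides of the parental libraries in the resistant lines, above them in the everolimus line and below them in the ridaforolimus line. The lines differed by 0.21 on the log2 scale (everolimus over ridaforolimus), which did not pass (adjusted p = 0.652, edgeR), and on the TPM scale the ridaforolimus mean was not below the parental one.

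Between the resistant lines 3 genes of the related lists differed past the threshold, beside 158 of all 21223 genes tested (0.744%). MSN stood at -1.68, NR1H3 at 1.49 and GATA3, a luminal transcription factor, at 2.38 (everolimus over ridaforolimus, adjusted p = 0.0403, 0.0371 and 0.0403, edgeR). GATA3 averaged 4.90 ± 1.39 CPM in the everolimus line, 0.932 ± 0.0248 CPM in the ridaforolimus line and 4.13 ± 0.333 CPM in parental cells (SD, n = 2 each). Each of the 3 calls was lost on leaving out any parental or any ridaforolimus library, while the signs stayed. GATA3 was also lost with limma-voom and MSN was not.

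Among all genes, 41.1% did not overlap parental cells in the everolimus line and 49.4% in the ridaforolimus line. The share with the lines on opposite sides was not computed. All tested genes of the lists were searched for that pattern, so the number found is no result about the lists. GATA3 overlapped parental cells in the everolimus line. Besides NR1H3 and MSN, 6 genes of these lists had the everolimus and ridaforolimus lines on opposite sides of both parental libraries. They were RXRA (0.52, adjusted p = 0.248), SLCO3A1 (0.27, adjusted p = 0.637), RDX (0.40, adjusted p = 0.351), GSTO1 (-0.46, adjusted p = 0.340), KRT19 (-1.50, adjusted p = 0.106) and SC5D (0.74, adjusted p = 0.203), as log2 fold changes of everolimus over ridaforolimus. In edgeR's test of the difference between the lines, 0 of these 6 passed, and DESeq2 called KRT19.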

How the results depend on the processing

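With 2 libraries a group, only large or tight changes could pass. Of 426 fold changes of single transporters under other settings, 401 kept their sign and side of the threshold, 23 changed sign and 2 passed. Both that passed were ABCA1 with no filter on low counts, so that 1 transporter was called in each line against parental cells (-0.84 and -0.93 in the everolimus and ridaforolimus lines). The cause was not tested. Levels in TPM were higher when the total was taken over protein-coding genes alone (ABCC1 177, 153 and 150 in the everolimus, ridaforolimus and parental groups).

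Counts of genes called in everolimus against parental cells were 1 as reported, 150 with DESeq2, 493 with no filter, and 0 with upper-quartile factors, library totals, a filter of 5 CPM, the replicate number as a block, protein-coding genes or the 2 groups only. Leaving out 1 library gave 0 to 3. In ridaforolimus against parental cells they were 68 as reported, 574 with DESeq2, 1195 with no filter, 28 with the replicate block and 127 with the 2 groups only, and 1 to 276 on leaving out 1 library. Between the lines they were 158 as reported, 657 with DESeq2, 1362 with no filter, 81 with the 5 CPM filter, 49 with the block, 75 with protein-coding genes and 0 with the 2 groups only, and 19 to 123 on leaving out 1 library. The transporters called stayed at 0 on leaving out any library.

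Libraries with the same number deviated together in everolimus and parental cells (r = 0.33) but not in the other pairs of groups (r = -0.17 and -0.19). Whether libraries with the same number share more than that number is not given in the sources used here and was not tested. The block changed no transporter's call. It turned ABCC3 to 0.10 in the ridaforolimus line and ABCA1 to -0.023 between the lines, and ended the calls of NR1H3, MSN and GATA3. A crossed pairing, added after seeing the data, called 1762 genes and 1 transporter (ABCA1) in the ridaforolimus line and 427 genes and 0 transporters between the lines.

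Near 0, ABCC10 turned to 0.0060 in the everolimus line with library totals. ABCC3 in the ridaforolimus line turned to 0.017 with limma-voom, 0.085 with upper-quartile factors, 0.044 with library totals, 0.032 with the 5 CPM filter and 0.042 with protein-coding genes. Leaving out 1 library gave, over parental in the everolimus line, -0.60 to 0.14 for ABCC2, -0.71 to 0.79 for ABCC3 and -1.04 to 1.38 for ABCG2. In the ridaforolimus line it gave -0.50 to 0.21 for ABCC2 and -0.32 to 0.37 for ABCC3. Between the lines it gave -0.42 to 0.22 for ABCC2, -0.69 to 0.81 for ABCC3, -0.037 to 0.41 for ABCC4, -2.03 to 0.29 for ABCG2 and -1.15 to 1.07 for ABCA1.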

Other observations

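Genes starting within 500 kb of each transporter were read for comparison. For ABCC10 the 33 tested neighbours had a median log2 fold change of -0.23 in the everolimus line and -0.33 in the ridaforolimus line, beside -0.05 and -0.41 for ABCC10 itself. The 20 neighbours of ABCC5 had medians of -0.07 and 0.18, the 8 of ABCC4 had 0.12 and 0.03, and the 5 of ABCA1 had -0.49 and -0.21. Among the neighbours of all 10 transporters 0 were called against parental cells by edgeR in either line, and 1, DZIP1 near ABCC4, was called between the lines.

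The share of counts from mitochondrial genes was 2.38% and 2.15% in the everolimus libraries, 2.42% and 3.19% in the ridaforolimus libraries and 4.38% and 3.0% in the parental libraries. Coding genes with at least 8000 bases of exon, a class that includes ABCC3, ABCC4, ABCC5, ABCC10 and ABCA1, took 32.3% and 30.4%, 31.4% and 32.8%, and 30.6% and 30.0% of the counts in the same groups. The part of either measure in the transporters' levels was not tested.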
